A study of Drosophila melanogaster with 12 samples.

Results

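The translation initiation factor genes are described here in neural precursor cells of the Drosophila melanogaster embryo, as the 39 genes whose symbol in the array's probe annotation begins with eIF. They were held by 41 probes and stood among 11980 named genes. The helicase gene eIF4A was left out because 128 probes carried its name, more than a single gene would have. The rule itself uses gene names and no measured value, but it was set with earlier results of these data known.

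Initiation is the step at which a ribosome is placed on the start codon of an mRNA. The factor eIF2 brings the initiator tRNA, eIF3 and eIF1 bind the small ribosomal subunit, and the cap-binding protein eIF4E with its scaffold eIF4G brings in the mRNA. eIF5 makes eIF2 hydrolyse its GTP once a start codon is found, eIF5B then joins the large subunit, and eIF2B recharges eIF2 with GTP. Neuroblasts, the stem cells of the fly nervous system, grow and divide repeatedly and bud off ganglion mother cells, whose entry into differentiation requires the transcription factor Prospero.

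RNA came from small pools of cells described as neuroblasts and ganglion mother cells of the ventral nerve cord, taken at embryonic stage 11 from embryos raised at 25 °C. Each of 12 samples held 50 to 100 cells, and its amplified cDNA was hybridised to its own two-colour array against a common reference of amplified cDNA made from roughly 30 whole embryos of the w1118 strain at stages 10 to 12. In 6 samples, labelled wildtype, the strain was pros17/TM3-KrGFP, so these embryos carried 1 mutant allele and a balancer of chromosome 3. In the other 6, labelled mutant, the strain was pros17/pros17, so both groups carried the mutant allele. Within each group the cells were in Cy3 on replicates 1 to 3 and in Cy5 on replicates 4 to 6. A difference between dyes therefore cannot be told apart from a difference between replicates 1 to 3 and 4 to 6. Between wildtype arrays the median correlation was 0.83 within a dye and 0.61 across dyes. Between mutant arrays it was 0.88 and 0.85. The labels do not say that samples came from separate embryos, so the spread behind each p-value is that between these samples and may be technical.

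Values are log2 ratios of cells over reference, with between 8421 and 10030 ratios per array. The direction is likely rather than stated. It was read from an epidermal, tracheal and gut marker list (4 of 8 genes tested), whose array medians lay between -3.15 and -1.16. The tested genes were pnr, sage, fkh and GATAe, so the tracheal markers trh and btl did not contribute. The other ground was the fall of prospero itself by 5.16 in the mutant. Not all lists from outside the nervous system were low. Hemocyte and fat body medians (6 genes tested) ran from 0.05 to 1.25 in wildtype and from -0.002 to 1.41 in the mutant. Muscle medians (3 genes tested) ran from -0.38 to 0.74 and from -2.45 to -0.43. Glia medians (5 genes tested) ran from 0.01 to 1.37 and from -0.38 to 1.39. The spacing of the lowest values was even for a logarithm of base 2 on 7 of the 11 arrays examined, and the values are treated as log2. The centring used by the authors is unknown, so a level of 0 marks no known amount of RNA. The depth of signal behind a ratio is also unknown, and the number of arrays limits the precision. Array medians of the neuroblast markers ran from -1.61 to 1.41 in wildtype and from 0.55 to 1.89 in the mutant, and those of the neuron markers from -0.07 to 2.66 and from -1.88 to 0.40. The 9 neuroblast markers tested include prospero itself. In wildtype they were split, with fitted levels from -1.78 for grh to 2.17 for prospero. In cell pools, fewer cells of a type and less RNA per cell cannot be told apart.

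Of the 39 genes, 33 had ratios on at least 4 arrays of each group and were tested, 28 of them with all 12 ratios. The other 6 were paralogs. The 4 genes eIF4E3, eIF4E5, eIF4E7 and eIF4H2 had no ratio on any array once values of exactly 0 or beyond 11 in size were missing. eIF3d2 and eIF3g2 kept 1 ratio each, both on mutant replicate 4, of -1.79 and 0.01. For eIF4E3, eIF4E5 and eIF3d2, 1 value each was beyond 11, and the other missing values were 0. The genes lie on all the major chromosomes, with 22 on chromosome 3, which carries prospero and the balancer.

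Most initiation factor genes were at a higher ratio than the scale's 0 in both groups, and the eIF3 genes made up the larger part of them. In wildtype 23 of the 33 tested genes were above the reference and 4 were below it, against 37.8% and 28.5% of the 8165 features tested (limma, Benjamini-Hochberg adjusted p under 0.05). In the mutant the counts were again 23 and 4, against 35.3% and 35.6% of all features. In total 22 genes were above in both groups and 4 below in both, where 30.1% and 24.8% of all features were. The median level of the 33 genes was 0.99 in wildtype and 0.86 in the mutant, and that of all features was 0.17 and -0.02. The 4 genes below the reference in both groups were eIF1, eIF4B, eIF4E6 and eIF4G1. These counts depend on the level of 0, whose meaning is not known. Of the 27 calls in each group, 17 in wildtype and 19 in the mutant held under all alternative settings in which the gene was fitted. Not every gene was fitted in each setting, as with eIF4G2, which was fitted in 16.

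**Figure D1:**
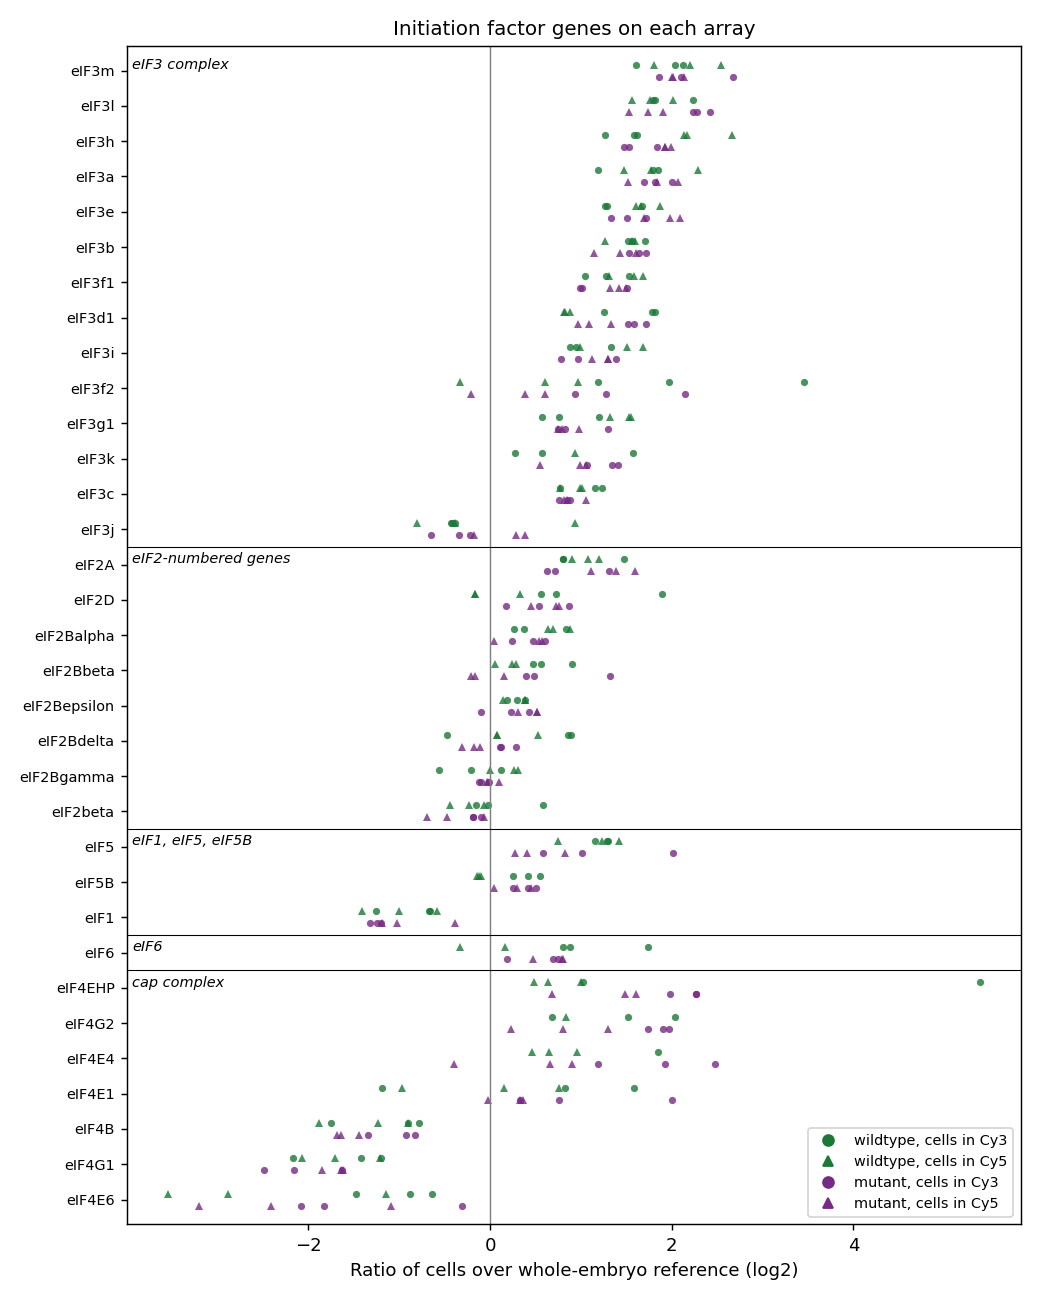
Log2 ratio of cells over the whole-embryo reference on each array (horizontal axis) for the 33 initiation factor genes tested, in 5 role groups, with wildtype in green above mutant in purple and the dye of the cells shown by the symbol. The eIF3 genes sit to the right of 0 on all arrays with a ratio except eIF3j and eIF3f2. eIF4G1, eIF4B, eIF1 and eIF4E6 sit to the left of 0 on all 12 arrays, and the points of the 2 groups overlap for each gene.

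The eIF3 complex, the large multi-subunit factor that holds the small ribosomal subunit ready for mRNA, lay above the reference almost throughout. Of its 14 tested genes, 13 were above the reference in wildtype and 13 in the mutant, with a median level of 1.36 and 1.33. On each array the median of the 13 eIF3 genes with all 12 ratios lay between 1.25 and 1.56 in wildtype and between 1.30 and 1.52 in the mutant. Over the same arrays the median of all features ran from -0.14 to 0.51. In all, 11 of the 14 genes had a ratio above 0 on every one of the 12 arrays, against 18.5% of all features.

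The highest mean ratios over the 12 arrays belonged to eIF3m, eIF3l, eIF3h and eIF3a, at 2.09, 1.94, 1.84 and 1.78. eIF3m, a core subunit, ran from 1.60 to 2.54 in wildtype with a median of 2.08, and from 1.86 to 2.68 in the mutant with a median of 2.06. Its fitted level was 4.14-fold above the reference in wildtype and 4.38-fold in the mutant, with limma adjusted p of 6.64e-07 and 2.95e-07. The lowest of these values was still above 1.5 on this log2 scale, and the groups overlapped over most of their range. eIF3l, another core subunit, had wildtype ratios of 1.57 to 2.24 with a median of 1.81 and mutant ratios of 1.53 to 2.42 with a median of 2.07. Its fitted level was 3.64-fold and 4.05-fold above the reference.

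eIF3a, the largest subunit and a scaffold of the complex, ran from 1.18 to 2.29 in wildtype with a median of 1.78 and from 1.52 to 2.07 in the mutant with a median of 1.83. eIF3h, one of a pair of subunits with an MPN domain, ran from 1.27 to 2.66 in wildtype with a median of 1.87, and from 1.47 to 1.99 in the mutant with a median of 1.88. For both genes the mutant arrays lay inside the range of the wildtype arrays. The 3 highest wildtype ratios of eIF3h were those with the cells in Cy5, and the difference between groups was 0.13 on the Cy3 arrays and -0.37 on the Cy5 arrays.

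The tightest members of the complex were eIF3b, which carries an RNA recognition motif, and the core subunit eIF3c. With 6 arrays in each group, eIF3b was at 1.53 ± 0.15 (SD) in wildtype and 1.51 ± 0.20 in the mutant, and eIF3c at 0.99 ± 0.19 and 0.87 ± 0.10. eIF3e was at 1.56 ± 0.24 and 1.72 ± 0.28, eIF3f1 at 1.40 ± 0.24 and 1.29 ± 0.24, and the WD-repeat subunit eIF3i at 1.22 ± 0.33 and 1.14 ± 0.23. In each of these genes the means of the groups stood closer together than the wildtype SD.

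eIF3j, a loosely bound subunit, was the exception among the eIF3 genes. Its wildtype ratios ran from -0.81 to 0.93 with a median of -0.40, and its mutant ratios from -0.65 to 0.38 with a median of -0.20. Wildtype replicate 4 was the only wildtype array above 0. The level was past the threshold in neither group.

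Paralogs within the complex differed in how much their arrays scattered. eIF3f1 stayed within a narrow band, whereas its paralog eIF3f2 ran from -0.33 to 3.46 in wildtype with a median of 1.08 and from -0.20 to 2.15 in the mutant with a median of 0.77. In both groups the eIF3f2 ratios were lower with the cells in Cy5, by 1.49 (adjusted p = 0.0378). It was 1 of 3 initiation factor genes past the threshold for dye, all lower in Cy5, where 11.0% of all features passed and 8.05% were lower. eIF3d1, whose human counterpart can bind the cap, was at 1.23 ± 0.47 (SD, n = 6) and 1.37 ± 0.30 and was lower by 0.63 with the cells in Cy5 (adjusted p = 0.0380). Each dye was used on 3 arrays of each group, so it does not move the group difference of a gene with all 12 ratios.

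The genes numbered with eIF2 had a lower median level than the eIF3 genes, with eIF2A the highest of them. They comprised eIF2beta, the 5 subunits of the exchange factor eIF2B, and eIF2A and eIF2D, which share the number but are not subunits of eIF2. Of these 8 genes, 5 were above the reference in wildtype and 4 in the mutant, and none was below. Their median level was 0.37 and 0.32. The 5 eIF2B subunits, which act as 1 complex, had a median level of 0.33 in wildtype and 0.32 in the mutant.

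Among the eIF2B genes, eIF2Balpha was at 0.61 ± 0.25 (SD, n = 6) in wildtype and 0.41 ± 0.22 in the mutant, and eIF2Bepsilon, the catalytic subunit, was at 0.29 ± 0.11 and 0.32 ± 0.24. eIF2Bbeta was at 0.42 ± 0.30 and 0.33 ± 0.56, and eIF2Bgamma, the partner of epsilon in the catalytic part, at -0.01 ± 0.33 and -0.03 ± 0.08. The calls of eIF2Bepsilon and eIF2Bbeta in wildtype were lost in 12 and 8 of 22 alternative settings. eIF2Bdelta, a regulatory subunit, ran from -0.47 to 0.89 in wildtype with a median of 0.30 and from -0.31 to 0.29 in the mutant with a median of 0.00. The whole mutant range lay inside the wildtype range.

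eIF2beta, the subunit of eIF2 that contacts eIF5, was at -0.06 ± 0.34 (SD, n = 6) in wildtype and -0.29 ± 0.24 in the mutant. eIF2A, an initiator tRNA-binding protein known from mammals, was at 1.04 ± 0.26 and 1.12 ± 0.38 and was above 0 on every array. eIF2D was at 0.53 ± 0.76 and 0.59 ± 0.25, and its wildtype call held in only 9 of 22 alternative settings.

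The factors of start site selection and subunit joining did not share a level. eIF1, which guards against wrong start codons, ran from -1.41 to -0.58 in wildtype with a median of -0.84 and from -1.32 to -0.39 in the mutant with a median of -1.20. It was below 0 on all 12 arrays, with fitted levels 1.91-fold and 2.09-fold below the reference. eIF5, the activator of the eIF2 GTPase, ran from 0.75 to 1.42 in wildtype with a median of 1.26 and from 0.28 to 2.02 in the mutant with a median of 0.71. It was above 0 on all 12 arrays, and mutant replicate 2 was the highest of them.

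eIF5B, the GTPase of subunit joining, ran from -0.14 to 0.55 in wildtype with a median of 0.07 and from 0.05 to 0.50 in the mutant with a median of 0.36. The 3 wildtype arrays with the cells in Cy5 were below 0, and every other array was above. Its level passed the threshold in the mutant and not in wildtype, while the difference between the groups was 0.19 with an adjusted p of 0.504.

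The genes of the cap complex, those numbered with eIF4, were split into high and low members. Of 7 tested genes, 3 were above and 3 below the reference in wildtype, and eIF4E1 was the remaining gene. eIF4G1, the main scaffold between the cap and eIF3, ran from -2.17 to -1.20 in wildtype with a median of -1.56 and from -2.48 to -1.62 in the mutant with a median of -1.74. Its fitted level was 3.09-fold below the reference in wildtype and 3.72-fold below in the mutant (adjusted p = 9.13e-06 and 2.01e-06). Its paralog eIF4G2, needed in the fly's male germ line, had ratios on 4 wildtype arrays, from 0.68 to 2.03 with a median of 1.18, and on 6 mutant arrays, from 0.24 to 1.97 with a median of 1.52. The 2 scaffold genes thus lay on opposite sides of 0 on all arrays with a ratio.

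eIF4B, an RNA-binding helper of the eIF4A helicase, was read by 2 probes whose average ran from -1.88 to -0.78 in wildtype with a median of -1.07 and from -1.69 to -0.83 in the mutant with a median of -1.39. This was 2.37-fold and 2.48-fold below the reference. Its first probe moved from -1.40 ± 0.61 (SD, n = 6) to -1.17 ± 0.43, and its second from -0.96 ± 0.67 (n = 5) to -1.46 ± 0.40. The probes differed in direction, and neither difference had a p under 0.05 (two-sided exact permutation p = 0.465 and 0.156).

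The eIF4E family of cap-binding proteins had 4 tested genes out of 7. eIF4E4 ran from 0.46 to 1.85 on the 4 wildtype arrays with a ratio, with a median of 0.80, and from -0.40 to 2.48 in the mutant with a median of 1.05. The ratios of eIF4E4 were lower by 1.37 with the cells in Cy5 (adjusted p = 0.0372). eIF4E6 ran from -3.55 to -0.64 in wildtype with a median of -1.31 and from -3.20 to -0.31 in the mutant with a median of -1.95. It was below 0 on all 12 arrays and had the lowest mean ratio of all the tested initiation factor genes, -1.79.

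eIF4EHP, which binds the cap without eIF4G and represses caudal and hunchback mRNA in the early fly embryo, ran from 0.48 to 5.39 on 5 wildtype arrays and from 0.68 to 2.27 in the mutant with a median of 1.79. Wildtype replicate 3 alone was at 5.39, and the other wildtype arrays did not exceed 1.03. Its fitted wildtype level was 1.87 with that array and 0.97 without it (adjusted p = 0.0062 and 0.0028), and the difference between groups was -0.16 with it and 0.75 without it (adjusted p = 0.909 and 0.124).

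eIF4E1, the main cap-binding protein, had 2 probes that gave opposite readings. The first probe was below 0 on all arrays, from -1.19 to -0.37 in wildtype with a median of -0.70 and from -1.80 to -1.18 in the mutant with a median of -1.50. The second was above 0 on all arrays with a ratio, from 0.92 to 3.54 on 4 wildtype arrays with a median of 2.17 and from 1.56 to 5.18 in the mutant with a median of 2.15. Averaged, as for all genes, the difference between the groups was 0.43 with an SE of 0.48 and an adjusted p of 0.610. It was -1.50 (adjusted p = 0.622) with zeros and values beyond 11 kept, -0.33 (adjusted p = 0.722) with values beyond 8 held at 8, and 0.06 (adjusted p = 0.942) without wildtype replicate 3. On wildtype replicates 3 and 6 that average rested on the first probe alone, because the second probe's values there were set to missing. Of these, 1 was exactly 0 and 1 was beyond 11 in size.

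Fitted on the probe with the most ratios per gene, eIF4E1 was lower in the mutant by 0.78 (SE 0.20, 95% interval -1.21 to -0.35, adjusted p = 0.0458), a 1.72-fold difference. It was then the 1 initiation factor gene of 33 past the threshold, where 4.99% of all features passed and 3.38% were lower in the mutant. The first probe's mean over 6 arrays was -0.72 ± 0.32 (SD) in wildtype and -1.50 ± 0.21 in the mutant (two-sided exact permutation p = 0.00433 over 924 splits). The groups met at 1 value, since wildtype replicate 3 was at -1.19 and mutant replicate 1 at -1.18. The difference was -0.83 on the Cy3 arrays and -0.72 on the Cy5 arrays. On the second probe it was 0.55 in the other direction (two-sided exact permutation p = 0.567 over 210 splits). Which transcripts each probe reads was not tested. The first probe is singled out here after its values were seen.

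**Figure D2:**
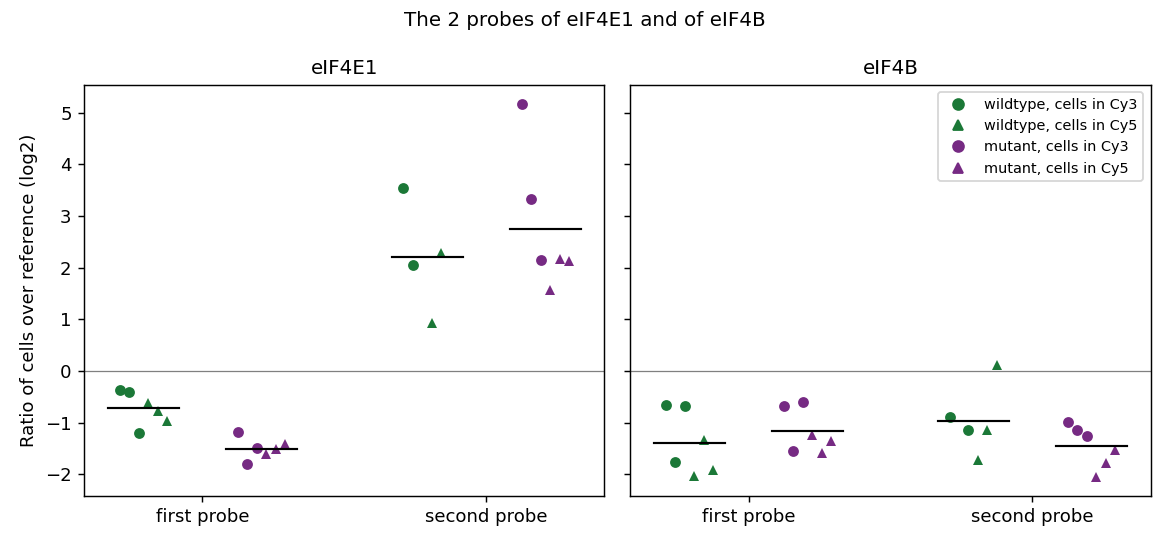
Log2 ratio of cells over reference on each array for the 2 probes of eIF4E1 (left panel) and of eIF4B (right panel), with wildtype in green, mutant in purple, the dye of the cells as the symbol and a black bar at each group's mean. The first eIF4E1 probe is at -0.72 in wildtype and -1.50 in the mutant, and the second at 2.20 and 2.75, while both eIF4B probes have means below 0.

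The question of the design was whether loss of prospero changes gene expression in these cells, and for the initiation factor genes no difference between the groups passed the test. The number called was 0 of 33, against 4.95% of all features (404 of 8165, limma with group and dye as terms). At an unadjusted p under 0.05 the number was also 0, against 25.9% of all features. The differences ran from -0.45 to 0.43 with 14 positive and 19 negative. Their median was -0.06, and that of all features was -0.13. The balance of signs rested on the scaling, since 26 were positive and 7 negative both with median centring and with quantile normalization, which also moved the median of all features to 0.08 and 0.09. The highest difference, 0.43, was that of eIF4E1, whose probes disagree. In no gene were all mutant arrays on 1 side of all wildtype arrays, which 3.48% of all features showed.

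The differences were also bounded on the scale of the deposited values. For 28 of the 33 genes the 95% interval lay within 1 log2 unit of 0. On that scale it left out a 2-fold change in either direction, and 39.2% of all features had such an interval. The count was not repeated with median centring of each array, which moved the median difference from -0.06 to 0.15. The spread behind the intervals may be technical. The 28 include eIF4B, whose 2 probes differed in direction. The median half-width of the interval was 0.46 for these genes and 0.70 for all features. The exceptions were eIF3f2, eIF4E1, eIF4E6, eIF4EHP and eIF4G2. The arrays of a group also stood closer together for these genes than for most features, with a median SD of 0.37 against 0.69 in wildtype and of 0.28 against 0.51 in the mutant.

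**Figure D3:**
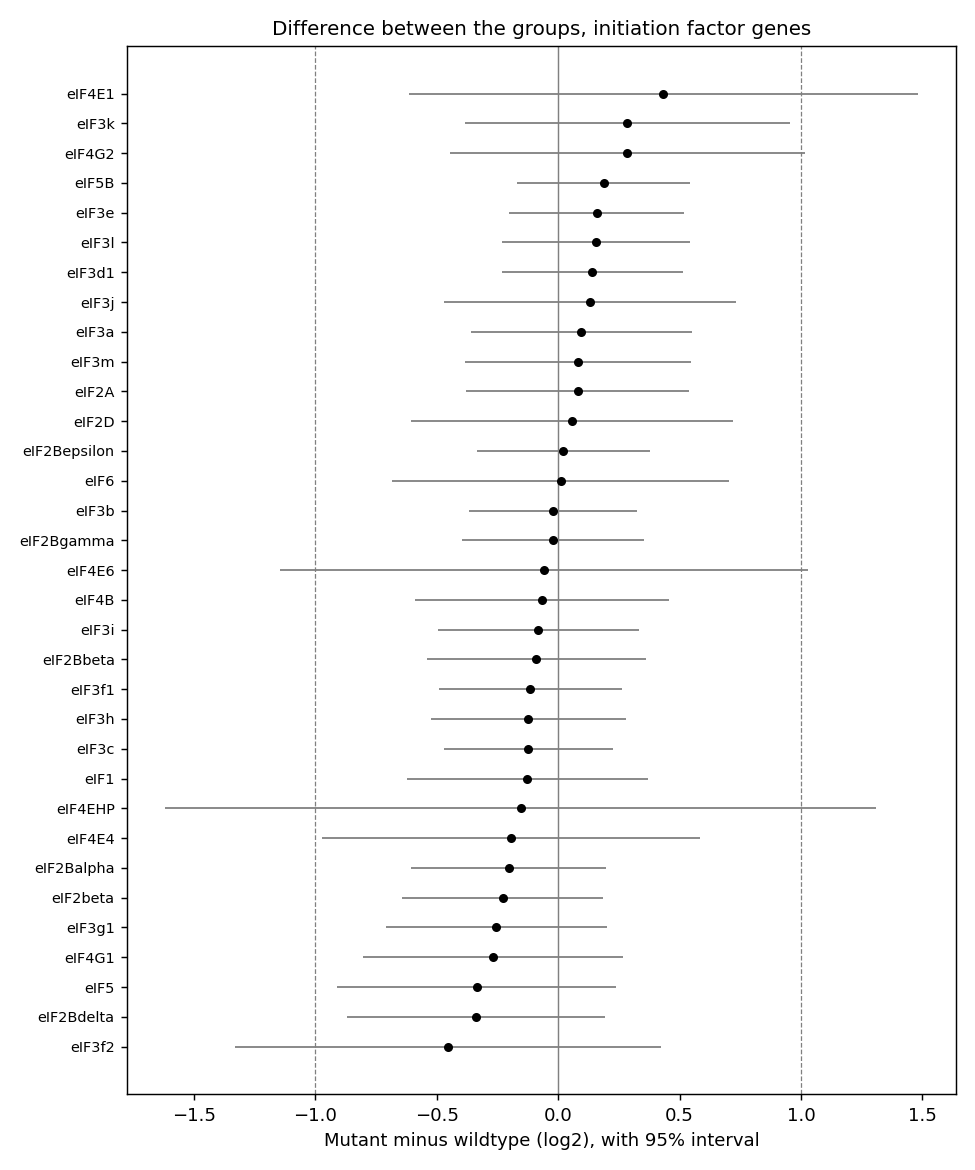
Fitted difference of mutant minus wildtype (log2, horizontal axis) with its 95% interval for each of the 33 initiation factor genes, sorted by size. All intervals cross 0, the values lie between -0.45 and 0.43, and 28 of 33 intervals stay between the dashed lines at 1 and -1.

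The largest of these differences, none past the threshold, belonged to different parts of the machinery. On the lower side in the mutant were eIF3f2 (-0.45, SE 0.40, adjusted p = 0.516), eIF2Bdelta (-0.34, SE 0.24, adjusted p = 0.412), eIF5 (-0.34, SE 0.26, adjusted p = 0.456) and eIF4G1 (-0.27, SE 0.25, adjusted p = 0.531). On the higher side, beside eIF4E1, were eIF3k (0.28, SE 0.30, adjusted p = 0.593), eIF4G2 (0.28, SE 0.33, adjusted p = 0.627) and eIF5B (0.19, SE 0.16, adjusted p = 0.504). eIF3k, a small outer subunit, had ratios from 0.28 to 1.57 on 4 wildtype arrays with a median of 0.75 and from 0.54 to 1.41 in the mutant with a median of 1.06. For eIF3k and eIF4G2 the fitted difference takes account of dye, since both lacked ratios on wildtype replicates 5 and 6. In all 8 genes the arrays of the groups overlapped.

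By role, the median difference was 0.03 for the eIF3 genes and -0.06 for the genes numbered with eIF2. It was -0.09 for the eIF2B subunits and -0.07 for the genes of the cap complex. No test was made of these medians. The 17 tested genes on chromosome 3, where the groups differed by a balancer as well as by the prospero allele, had a median difference of 0.06, and the 16 on the other chromosomes one of -0.09. Effects of the balancer and of the allele cannot be told apart.

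**Figure D4:**
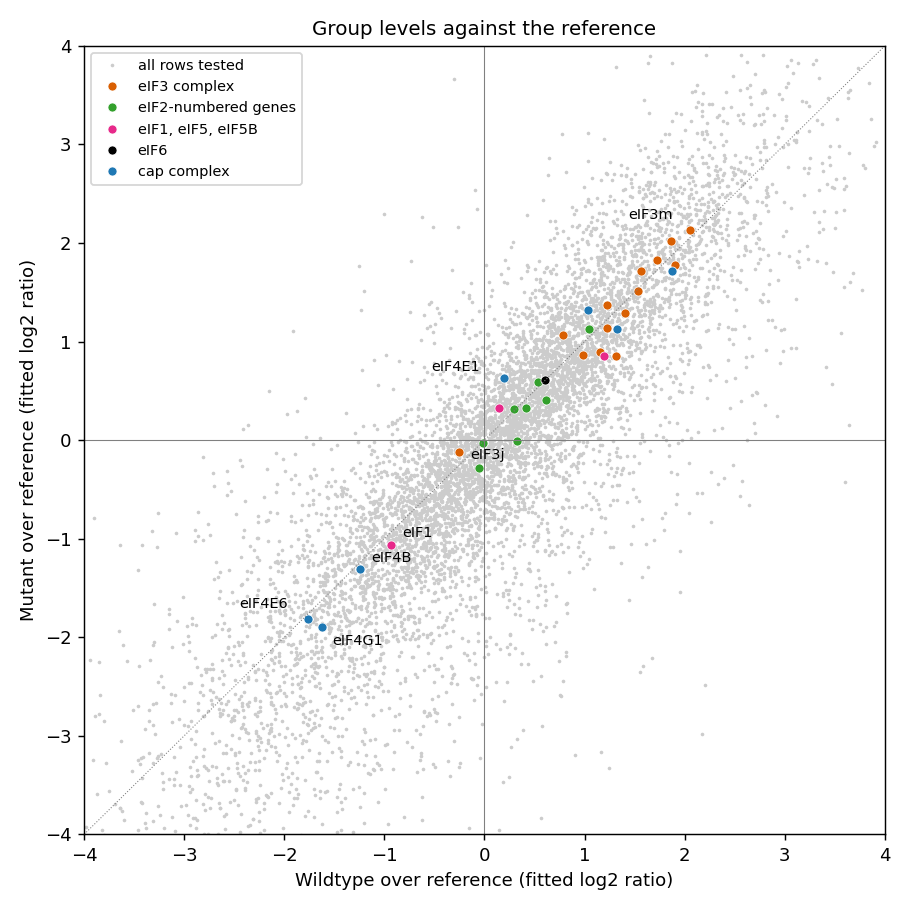
Fitted level over the reference in wildtype (horizontal axis, log2) and in the mutant (vertical axis, log2) for all features tested (grey) and the initiation factor genes by role (colour), with a dotted line of equality. Both axes stop at 4, which leaves 321 features outside. The coloured points lie near the line, from eIF4G1 and eIF4E6 at the lower left to eIF3m at the upper right.

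On the 2 dye orientations taken separately, 0 initiation factor genes passed the threshold in either, against 0.0254% of all features on the Cy3 arrays and 6.90% on the Cy5 arrays. Few calls were thus made over all features with the cells in Cy3. The genes had median differences of -0.01 on the Cy3 arrays and -0.05 on the Cy5 arrays. The difference was also tested for dependence on dye, which cannot be separated from the replicates that carried it. This test called 0 of 33 genes, against 0.416% of all features. At an unadjusted p under 0.05 it called 2 genes, against 15.7%. These were eIF6, which keeps the large ribosomal subunit from joining too early, and eIF2D. In eIF6 the Cy3 wildtype ratios of 0.80 to 1.74 were all above the Cy3 mutant ratios of 0.19 to 0.74. With the cells in Cy5 the wildtype ratios, -0.33 and 0.16, were both below the mutant ratios of 0.47 to 0.80. The interaction was 1.37 for eIF6 (adjusted p = 0.219) and 1.17 for eIF2D (adjusted p = 0.303). For eIF3g1, an RNA recognition motif subunit, it was -0.74 (adjusted p = 0.357).

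Regulators of translation act on or beside the initiation factors. Their list held 25 symbols, with larp in 2 spellings, and 19 were found on the array. Of these 18 were tested, and 1 fell and 0 rose in the mutant. This share is near the 4.95% called over all features. The median difference was 0.18. Paip2, a protein that holds poly(A)-binding protein away from mRNA, fell by 1.12 (SE 0.22, adjusted p = 0.020), from 0.88 ± 0.57 (SD, n = 6) to -0.24 ± 0.58 (SD, n = 6). Its call held in 19 of 24 alternative settings and was lost without mutant replicate 4, without the dye term, within either dye and with a replicate block. Gcn2, a kinase that phosphorylates eIF2, was at 0.12 ± 0.43 and -0.68 ± 0.12, a difference of -0.80 with an adjusted p of 0.055. Lk6, a kinase of eIF4E, was at 1.34 ± 0.35 and 1.95 ± 0.30, with a fitted difference of 0.65 and an adjusted p of 0.073.

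Factors of elongation and termination act after the start codon is found. Their list held 19 symbols, some of them old and new names of 1 gene, and 9 were found on the array. Of those 9 genes 8 were tested. Of these 1 fell, against 4.95% of all features called in either direction, and the median difference was -0.12. eEF1alpha2, 1 of 2 fly genes for the factor that delivers aminoacyl-tRNA, fell by 2.06 (SE 0.51, adjusted p = 0.041), from 0.30 ± 1.42 (SD, n = 6) to -1.76 ± 0.41 (SD, n = 6). The difference was -0.80 on the Cy3 arrays and -3.33 on the Cy5 arrays, and the call held in 8 of 24 alternative settings. Leaving out any single array ended it, except wildtype replicates 1 and 2 and mutant replicates 2 and 3. The next genes by p, eEF1gamma and eEF5, differed by 0.22 and -0.20 (adjusted p = 0.561 and 0.594). None of the 8 was above the reference in either group, where 37.8% of all features were in wildtype and 35.3% in the mutant. Below it were 3 in wildtype and 4 in the mutant, against 28.5% and 35.6% of all features.

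Genes picked by name from 2 other parts of the translation machinery did not share the level of eIF3. Cytosolic ribosomal protein genes were the 35 whose symbol begins with RpL or RpS and a digit, which may not be the whole family. The 32 of them tested had a median level of 0.46 in wildtype and 0.13 in the mutant. Above the reference were 17 in wildtype and 10 in the mutant, and below it 4 and 8. Over all features 37.8% and 35.3% were above and 28.5% and 35.6% below. The median difference of the ribosomal protein genes was -0.21 with 0 called, against 4.95% of all features. Aminoacyl-tRNA synthetases charge tRNAs, and 8 of their genes were found by the form of the symbol, which may also miss some. These 8 had median levels of -0.01 and -0.14 and a median difference of -0.13, with 0 called.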

How the data were processed

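The deposited values, per the labels, are ratios of each of 12 samples against a common reference; the authors' log2 scale and the direction were read from the values, and the sources used here do not name the scanner, the background correction or the normalization. Ratios of exactly 0, 22.1% to 38.6% of the 14569 probes per array, and sizes beyond 11 were set to missing. Of the probes, 12658 had 1 gene symbol in the platform annotation, and 12012 of these were found in the RefSeq gene table, which changed 0 symbols. Probes of a gene were averaged. Rows with at least 4 ratios per group (8165) were fitted with group and dye in limma 3.58.1 (R 4.3.3), with Benjamini-Hochberg adjustment over all rows (threshold 0.05). Levels are the fitted group means over the reference; the fit was tested on simulated data. Where ratios are missing, fitted and plain differences of means can differ.

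The members and lists were chosen with earlier results of these data known. Named were all genes past the threshold, the 4 largest differences each way, the 4 highest and 4 lowest mean ratios, the eIF4E and eIF4G paralogs, and from the lists of translation control and of elongation and termination the genes past the threshold and up to 3 with the smallest p; other members are given in shorter form. Replicate numbers were not taken as pairs, since the deviations of same-numbered arrays correlated by 0.0622 to 0.262 over 6361 rows, not all above 0.1. Alternatives covered missing values, centring, the filter, probes, dye, the replicate block, the eBayes setting and leaving out each replicate.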

Additional observations from a re-analysis of the deposited data

Results flagged for a closer look

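Among 66 groups of arrays of the initiation factor genes, 4 had a single array far from the rest, where chance gives about 1 in 20. These were eIF1 on mutant replicate 6 (-0.39, the nearest other array at -1.03), eIF3j on wildtype replicate 4 (0.93, the nearest at -0.39), eIF3m on mutant replicate 2 (2.68, the nearest at 2.14) and eIF4EHP on wildtype replicate 3 (5.39, the nearest at 1.03). In eIF6 all mutant arrays were below all wildtype arrays with the cells in Cy3 and above them with the cells in Cy5, a change of the difference by 1.37 that did not pass the adjusted threshold (limma interaction, adjusted p = 0.219).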

How the results depend on the processing

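The count of initiation factor genes differing between the groups stayed at 0 under the alternatives tried except with the probe with the most ratios, which gave 1, eIF4E1 at -0.78. That probe also turned its levels to -0.72 in wildtype and -1.50 in the mutant. The median difference of -0.06 became 0.15 with median centring and 0.15 with quantile normalization, as that of all features went from -0.13 to 0.08 and 0.09, so the excess over all features was 0.07, 0.07 and 0.06. Calls over all features were 129 higher and 275 lower, but 423 and 221 with centring and 313 and 178 with quantile normalization. With the cells in Cy5 only, 14 genes were above the reference in wildtype and 15 in the mutant, of 31 fitted, and the wildtype levels of eIF2D and eIF6 were -0.000141 and -0.085. Leaving out each replicate gave 0 calls for the difference and 0 for the interaction, with medians of -0.06 to -0.02. In these fits 17 to 23 genes were above the reference and 4 to 5 below it in wildtype. In the mutant 19 to 23 were above and 4 to 5 below. The shares of all features above and below in the Cy5 and leave-one-out fits are not given here. A change in these counts therefore cannot be read as particular to the initiation factor genes. A replicate block left 0 initiation factor genes called and a median of -0.06, with 106 calls over all features against 404 without it. As a hint of pairing, 6 of 6 wildtype arrays correlated best with the mutant array of their own number. The cause of these changes was not tested.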
